A study of Mus musculus with 23 samples.

Results

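The TRAV16 family is a small group of variable segments of the T cell receptor (TCR) alpha chain, TRA. Its members were the TRA clonotypes whose V name carries 16 as its first number, and they were selected on that name alone, which the authors' software had read from the sequences. This gave 1099 of 29047 TRA clonotypes under 2 of 143 V names. The name TRAV16 had 200 clonotypes and the joint name TRAV16D/DV11V16N had 899. A further 8 family clonotypes with an unresolved residue were left out. A clonotype is a combination of V name, J name and CDR3 amino acid sequence.

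The study's model was a syngeneic mouse melanoma derived from the cell line NIL, which carries Nras Q61R and had been exposed to ultraviolet radiation, so all groups share this tumour line. The 4 treatments were no drug (control), trametinib, which inhibits the kinase MEK, BGB-283, which inhibits RAF kinases, and both drugs given together (combination). Each was sampled at D4 and D11, with 3 libraries in each of the 8 groups except control D11, which had 2, and 23 libraries in all. The labels do not give the animals' strain or age, the event from which days are counted, or the animal behind each library. The p-values therefore take in no more than the spread among the libraries of a group, which may be technical. In RNA from bulk samples, more cells of a clone and more TCR RNA per cell cannot be told apart.

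An alpha chain is made when a developing T cell joins 1 of many TRAV segments to 1 of many TRAJ segments, and the bases at the joint, with those added or lost there, encode the CDR3. The CDR3 is the loop that lies over the peptide when the TCR binds a peptide on a major histocompatibility molecule. In the mouse, part of the TRAV array was duplicated, so that a family often has near-identical copies that short reads may not separate. A cell can also join its alpha locus again, with a TRAV segment farther from the TRAJ array and a TRAJ segment farther from the TRAV array.

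The mouse reference annotation (RefSeq, GRCm38.p6) names 3 members on chromosome 14, in the alpha and delta chain locus. Trav16d-dv11 lies between Trav8d-2 and Trav13d-4, Trav16n between Trav8n-2 and Trav13n-4, and Trav16 between Trav8-2 and Trav13-4-dv7. Of 130 TRAV symbols, 85 lie between Trav16d-dv11 and the first TRAJ, 51 between Trav16n and the first TRAJ, and 13 between Trav16 and the first TRAJ. The deposited joint name thus covers the copies farther from the TRAJ segments and the name TRAV16 the nearest copy. TRAJ numbers fall along the locus, from TRAJ61 on the TRAV side to TRAJ1 on the other.

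The CDR3 sequences below are those of at most 14 residues among the clonotypes that held at least 1% of a library's TRA counts or were listed in 5 or more libraries. They show the start that most members shared and the differing ends that the TRAJ segments gave.
TRAJ26 clone of control D11 replicate 2: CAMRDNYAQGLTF
TRAJ31 clone of trametinib D4 replicate 2: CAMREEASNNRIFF
TRAJ9 clone of control D11 replicate 2: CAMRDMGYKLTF
TRAJ24 clone of combination D4 replicate 2: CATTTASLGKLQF
TRAJ33 clonotype, listed in 7 libraries: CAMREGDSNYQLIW
TRAJ30 clonotype, listed in 6 libraries: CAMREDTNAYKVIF
TRAJ22 clonotype, listed in 6 libraries: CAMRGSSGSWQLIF
TRAJ21 clonotype, listed in 5 libraries: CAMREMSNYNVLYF
The start CAMR was found in 953 of the 1099 family clonotypes (86.7%) and in 0.182% of the other TRA clonotypes. Among those 953, the next residue was E in 740 (77.6%), G in 73 and D in 65. This start lies at the end of the V segment, so it rests partly on the same bases as the V name and is given as a description. It was found in 89.0% of clonotypes under the name TRAV16 and in 86.2% under the joint name.

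Depth differed between libraries. Total counts ran from 70038 to 798622 and TRA counts from 37504 to 524431. The 5 control libraries had 265 to 815 TRA clonotypes and the 6 combination libraries 820 to 4424. Values of 1 and 2 do not occur in the table, so a name or clonotype listed at 0 may have had fewer than 3 counts. The control libraries D4 replicate 1 and D11 replicate 1 had the lowest total counts.

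The family held 3.84% of all TRA counts and 3.78% of all TRA clonotypes. Its mean share of a library's TRA counts was 4.05% ± 3.88 (SD, n = 23), which ranked 9 of 21 TRAV families. Its share was lowest in control at D4 and highest in one control library at D11 and in trametinib at D4. The 3 control D4 libraries had 0.985%, 0.506% and 0.397% of TRA counts in the family, and the 2 control D11 libraries had 3.23% and 16.3%. The 3 control D4 values lay below both control D11 values. The trametinib libraries had 8.11%, 13.2% and 2.87% at D4 and 5.35%, 4.05% and 3.27% at D11. The BGB-283 libraries had 3.55%, 2.88% and 1.42% at D4 and 0.963%, 1.77% and 3.00% at D11. The combination libraries had 5.52%, 5.24% and 1.74% at D4 and 2.06%, 1.91% and 4.95% at D11. At D4 all 9 drug-treated libraries lay above all 3 control libraries, while at D11 the BGB-283 libraries lay below both control libraries and the other groups overlapped with control.

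**Figure D1:**
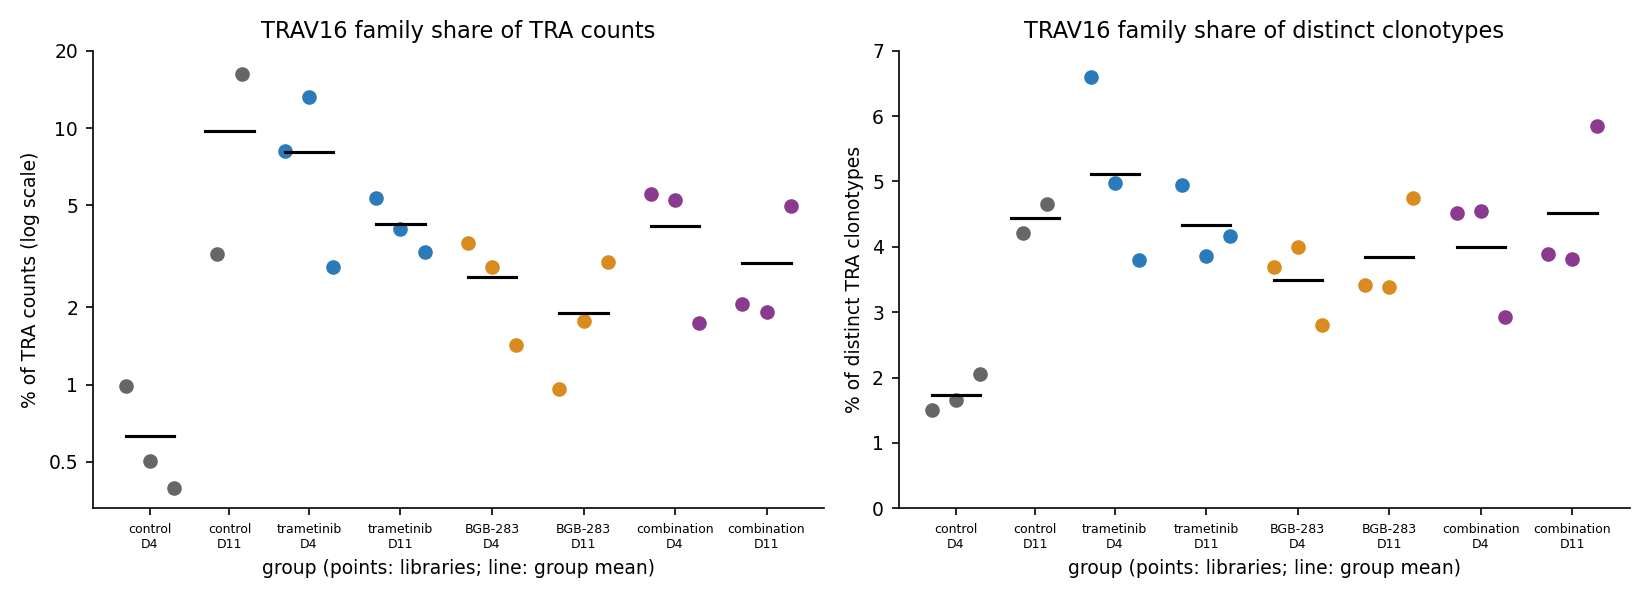
TRAV16-family share of TRA counts (left, percent, log axis) and of distinct TRA clonotypes (right, percent, linear axis) in each of the 23 libraries, by group; points are libraries and black lines group means. The control D4 libraries, at 0.397% to 0.985% of counts, sit below the other groups in the left panel except BGB-283 D11, whose lowest library is at 0.963%; in the right panel control D4 sits below every other library.

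Averaged over the days, no treatment difference in the family's share passed the threshold of 0.05 in edgeR's quasi-likelihood test adjusted over 21 families, where 0% of families were called in each of the 5 treatment contrasts. The log2 difference was 1.23 (SE 0.62, adjusted p = 0.564) for trametinib against control, 0.51 (SE 0.61, adjusted p = 0.948) for the combination and -0.15 (SE 0.60, adjusted p = 0.996) for BGB-283. The sign for BGB-283 was not settled: with TMM scaling the log2 difference was 0.27. The combination differed from trametinib by -0.73 (95% interval -1.85 to 0.40, adjusted p = 0.758) and from BGB-283 by 0.66 (95% interval -0.47 to 1.78, adjusted p = 0.610). D11 differed from D4 by 0.52 (SE 0.41, adjusted p = 0.538) over the 4 treatments, a contrast in which 9.52% of families were called, TRAV1 and TRAV6.

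In the main fit the log2 difference from control was above 0 at D4 and below 0 at D11 for each drug treatment. The test of this difference between days, given below, rested on control D11 replicate 2. At D4 the family was higher than control by a log2 difference of 3.68 (SE 0.90, edgeR adjusted p = 0.00111) in trametinib, by 2.73 (SE 0.86, adjusted p = 0.0349) in the combination, and by 2.06 (SE 0.84, adjusted p = 0.0771) in BGB-283, which did not pass. At D11 the log2 differences were -1.21 (adjusted p = 0.681), -1.71 (adjusted p = 0.739) and -2.35 (adjusted p = 0.171), and none passed. In each D4 contrast 4.76% of families were called, 1 of 21. That family was TRAV16 for trametinib and the combination and TRAV13, which was lower, for BGB-283. Between D4 and D11 the family rose in control, by a log2 difference of 3.96 (SE 0.94, adjusted p = 0.000775), where again 4.76% were called. The same change was -0.93 in trametinib, -0.46 in BGB-283 and -0.49 in the combination, and none of these passed. The D4 difference of trametinib passed with any 1 library left out. That of the combination did not pass without any 1 of 6 libraries, namely control D4 replicates 2 and 3, control D11 replicate 2, trametinib D4 replicate 2 and combination D4 replicates 1 and 2 (log2 difference 2.47 to 2.73, adjusted p up to 0.251), nor with TMM (2.51, adjusted p = 0.0850). With each clonotype counted once the differences were smaller and the same calls were made, with 1.44 (adjusted p = 0.00136) in trametinib and 1.14 (adjusted p = 0.0104) in the combination at D4, and 1.31 (adjusted p = 0.0430) for the rise in control. These contrasts within a day or a treatment were added after the values were seen.

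The test of the difference itself compared each treatment's change from control at D11 with that at D4. It gave a log2 difference of -4.88 (SE 1.24, edgeR adjusted p = 0.00208) for trametinib, -4.44 (SE 1.23, adjusted p = 0.00752) for the combination and -4.41 (SE 1.23, adjusted p = 0.00821) for BGB-283. In each of the 3 contrasts TRAV16 was the 1 family of 21 called (4.76%). All 3 contrasts share the 5 control libraries. They rest on control D11 replicate 2: without it the values were -3.29, -2.85 and -2.81 with adjusted p of 0.188, 0.275 and 0.153, and control D11 was then 1 library, assumed to vary like the other groups. Without that library the rise in control was 2.36 (adjusted p = 0.210). Counting each clonotype once also ended all 3 calls, at -1.47, -1.21 and -1.15 for trametinib, the combination and BGB-283 (adjusted p of 0.0566, 0.206 and 0.171), and TMM ended that of the combination (-3.68, adjusted p = 0.0675).

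The largest clone of a library set much of these shares. Clonotypes with at least 1% of a library's TRA counts numbered 14, in 9 libraries, or 1.05% of the family's 1339 listed values, against 1.02% of those of other TRA clonotypes. In control D11 replicate 2 a TRAJ26 clone (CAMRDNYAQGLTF) held 12.5% of TRA counts and 76.8% of the family's counts. The same library held the TRAJ9 clone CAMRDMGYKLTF at 2.06%. In trametinib D4 replicate 2 a TRAJ31 clone (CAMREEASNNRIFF) held 11.03% of TRA counts and 83.8% of the family's, and it was listed in no other library. A TRAJ23 clone with a CDR3 of 15 residues held 4.68% in trametinib D4 replicate 1. These 4 clones carried the joint name.

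Under the name TRAV16, a TRAJ38 clone with a CDR3 of 16 residues held 3.30% of TRA counts in combination D4 replicate 1. A TRAJ2 clone of 17 residues held 1.52% in combination D4 replicate 2, and a TRAJ18 clone of 16 residues held 1.48% in combination D11 replicate 3. Under the joint name, a TRAJ38 clone held 1.47% in trametinib D11 replicate 1, a TRAJ18 clone 1.46% in combination D4 replicate 2 and a TRAJ40 clone 1.23% in BGB-283 D11 replicate 3. The TRAJ24 clone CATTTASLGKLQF, which lacks the CAMR start, lay just inside the 1% limit at 1.01% in combination D4 replicate 2. A TRAJ30 clone at 0.989% in combination D11 replicate 3 and the TRAJ22 clonotype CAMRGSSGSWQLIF at 0.980% in BGB-283 D4 replicate 2 lay just outside it.

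**Figure D2:**
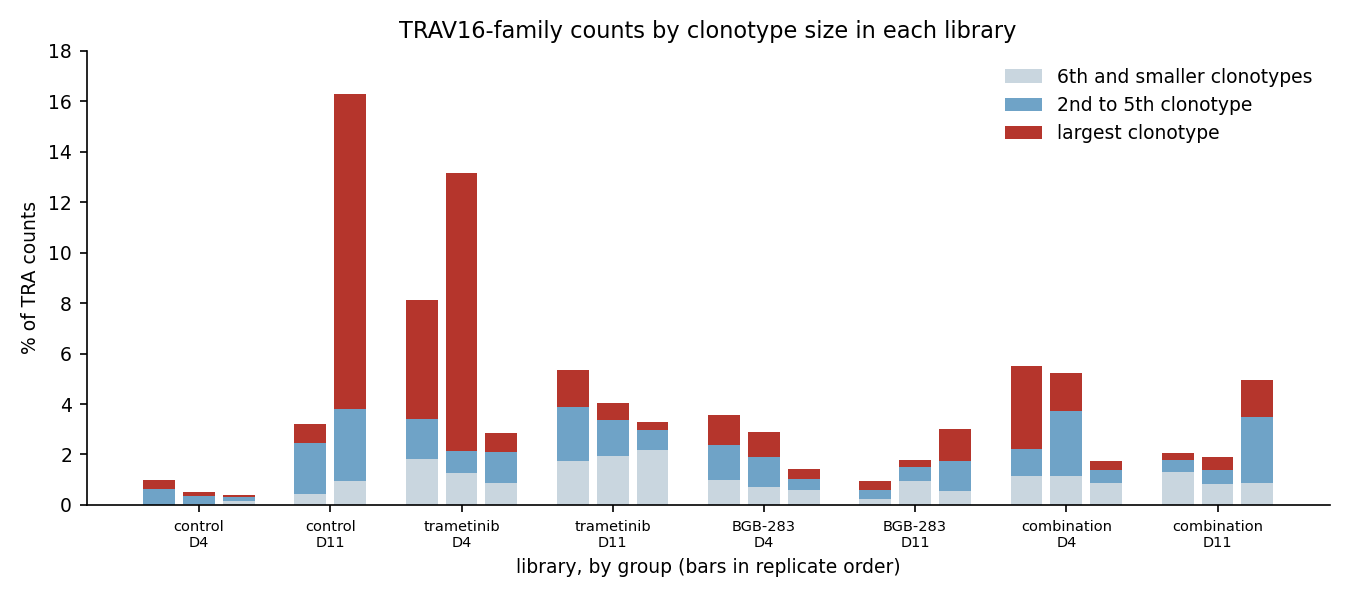
Stacked bars of the family's share of TRA counts (percent) in each of the 23 libraries, split into the largest clonotype, the 2nd to 5th, and the rest. The largest clonotype makes up 12.5% of TRA counts in control D11 replicate 2 and 11.03% in trametinib D4 replicate 2, the tallest red segments.

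With each library's largest family clonotype removed, the shares were 0.635%, 0.367% and 0.333% in control D4 and 2.48% and 4.32% in control D11. Trametinib then had 2.10% to 3.59% at D4 and 2.97% to 3.94% at D11, BGB-283 1.04% to 2.41% and 0.596% to 1.78%, and the combination 1.40% to 3.77% and 1.39% to 3.52%. Every drug-treated D4 library remained above every control D4 library. The rise in control from D4 to D11 was then a log2 difference of 2.94 (edgeR adjusted p = 0.0444). The D4 differences from control were then 2.60 (adjusted p = 0.0735) in trametinib and 2.48 (adjusted p = 0.103) in the combination. The differences between days in the change from control were then -2.59 (adjusted p = 0.617), -3.09 (adjusted p = 0.164) and -3.40 (adjusted p = 0.123) for trametinib, the combination and BGB-283. None of these 5 passed.

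The largest clone's share of the family's counts did not differ past the threshold in any contrast averaged over days. It was 36.0% ± 23.8 (SD, n = 5) in control, 37.2% ± 28.2 (n = 6) in trametinib, 31.6% ± 9.20 (n = 6) in BGB-283 and 30.0% ± 15.9 (n = 6) in the combination. The adjusted p was 0.94 in all 6 contrasts by the two-sided exact permutation test within days (within treatments for D11 against D4). These averages join differences of opposite sign on the 2 days, which were not tested day by day. Trametinib differed from control by 29.8 points at D4 and by -32.2 at D11, the combination by 9.75 and -26.5, and BGB-283 by 5.002 and -18.6. The D11 differences are taken against 2 control libraries, at 23.7% and 76.8%. The number of clonotypes needed to reach 50% of the family's counts ran from 1 in 4 libraries to 10 in trametinib D11 replicate 3.

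The joint name carried 79.3% of the family's counts and the name TRAV16 20.7%. The joint name was listed in 23 of 23 libraries and the name TRAV16 in 22. In control D4 the name TRAV16 was listed at 0 in replicate 1 and had 0.0240% and 0.0726% of TRA counts in the others, and in control D11 it had 0.320% and 0.228%. The trametinib libraries had 0.829%, 0.325% and 0.314% at D4 and 0.717%, 1.19% and 0.311% at D11. The BGB-283 libraries had 0.264%, 0.169% and 0.198% at D4 and 0.0826%, 0.0454% and 0.614% at D11. The combination libraries had 3.73%, 1.79% and 0.266% at D4 and 0.0872%, 0.283% and 1.64% at D11. The 3 highest values were thus combination libraries, each with a TRAV16 clone over 1%, while the other 3 combination libraries lay within the range of the other treatments.

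The joint name had 0.985%, 0.482% and 0.325% in control D4 and 2.91% and 16.1% in control D11. The trametinib libraries had 7.28%, 12.8% and 2.56% at D4 and 4.63%, 2.85% and 2.96% at D11. The BGB-283 libraries had 3.29%, 2.71% and 1.23% at D4 and 0.881%, 1.72% and 2.38% at D11. The combination libraries had 1.79%, 3.45% and 1.48% at D4 and 1.97%, 1.63% and 3.32% at D11. The joint name thus held most of the family in all control, trametinib and BGB-283 libraries, where the name TRAV16 reached at most 29.5% of the family's counts. In combination D4 replicate 1 the name TRAV16 held 67.6%.

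Of 118 TRAV names tested in edgeR, neither family name passed in the 6 contrasts averaged over days or treatments. In those contrasts 0% of names were called, except 1.69% for BGB-283 against control and 0.847% for the combination against BGB-283. The name TRAV16 was higher than control by a log2 difference of 3.59 (SE 1.18, edgeR adjusted p = 0.161) in the combination, of 2.67 (adjusted p = 0.297) in trametinib and of 1.27 (adjusted p = 0.538) in BGB-283. DESeq2 called the first of these, at 3.83 with an adjusted p of 0.000741. The joint name differed from control by -0.07, 1.11 and -0.25 in the combination, trametinib and BGB-283, and the first and last of these changed sign under TMM. Of the tests of treatment by day, the joint name in trametinib passed (log2 difference -5.11, SE 1.25, edgeR adjusted p = 0.0252, with 1.69% of names called). It did not pass without control D11 replicate 2, at -3.40 with an adjusted p of 0.428, nor without control D4 replicate 2 or 3, trametinib D4 replicate 2 or any 1 trametinib D11 library (adjusted p of 0.0505 to 0.0995).

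The family's share of distinct TRA clonotypes, each counted once, varied less than its share of counts. It was 1.51%, 1.66% and 2.05% in control D4 and 4.22% and 4.66% in control D11. Trametinib libraries had 6.59%, 4.98% and 3.79% at D4 and 4.95%, 3.86% and 4.17% at D11. BGB-283 libraries had 3.68%, 3.996% and 2.80% at D4 and 3.41%, 3.38% and 4.74% at D11. Combination libraries had 4.52%, 4.54% and 2.93% at D4 and 3.89%, 3.82% and 5.85% at D11. The control D4 libraries lay below all 20 others. Averaged over days, the difference from control was 1.64 percentage points in trametinib, 1.17 in the combination and 0.579 in BGB-283 by the two-sided exact permutation test within days, with adjusted p of 0.285, 0.285 and 0.330. By day, and with no test of either day, it was 3.38, 2.26 and 1.75 points at D4 and -0.11, 0.0803 and -0.60 at D11. The smallest p these tests allow is 0.005. Near copies were then merged, an alternative added after the data were seen. A near copy here is a clonotype of the same library, V name and TRAJ as one with at least 20 times its counts, from which its CDR3 differs by 1 residue. With them merged, trametinib and the combination passed, at 1.19 and 1.24 points with an adjusted p of 0.0407 each by exact permutation.

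The number of family clonotypes was higher in trametinib and the combination than in control, as was the total number of TRA clonotypes. Control libraries listed 4, 7 and 14 at D4 and 14 and 38 at D11. Trametinib libraries listed 49, 56 and 62 at D4 and 104, 30 and 61 at D11. BGB-283 libraries listed 29, 45 and 32 at D4 and 18, 38 and 49 at D11. Combination libraries listed 150, 201 and 96 at D4 and 65, 129 and 48 at D11. At D4 the control libraries lay below all others, and at D11 only the combination libraries all exceeded both control libraries. On the log2(number + 1) scale the difference from control was 2.86 in the combination and 2.01 in trametinib, with an adjusted p of 0.03 each, and 1.27 in BGB-283 with an adjusted p of 0.06, by exact permutation. The combination exceeded BGB-283 by 1.59 (adjusted p = 0.03) and trametinib by 0.85 (adjusted p = 0.084, exact permutation). The total number of TRA clonotypes moved with these counts. Its mean was 503 in control, 1307 in trametinib, 957 in BGB-283 and 2815 in the combination, so the differences are not particular to the family. At an equal depth of 37504 TRA counts the differences from control were 2.54 in the combination and 1.91 in trametinib (adjusted p = 0.015 and 0.03, exact permutation). Equal depth does not make the total number of clonotypes equal. Without control D11 replicate 1 neither passed, at 2.52 and 1.67 with an adjusted p of 0.075 each by exact permutation, and without both shallow control libraries they were 2.33 and 1.48. Trametinib also did not pass without any 1 of its D4 libraries or its D11 replicate 3, nor the combination against BGB-283 without control D11 replicate 1 (adjusted p = 0.06 each, exact permutation). BGB-283 against control passed in 4 fits, without control D4 replicate 3, control D11 replicate 2, trametinib D11 replicate 1 or combination D11 replicate 3 (exact permutation, adjusted p of 0.0375 to 0.048). The combination against trametinib passed without either of the last 2 (exact permutation, adjusted p of 0.04 and 0.048). Where a library outside the contrast was left out, only the adjustment over the 6 contrasts changed.

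The TRAJ partners of the family lay nearer to the TRAV side of the locus than those of other TRA clonotypes. The mean TRAJ number was 30.1 ± 2.79 (SD, n = 23 libraries) in the family and 27.4 ± 1.26 in the other TRA clonotypes of the same libraries. The difference was 2.68 ± 2.80, higher in 21 of 23 libraries (two-sided permutation test over libraries, p = 0.00011, adjusted over 3 measures 0.00016). It was 1.73 ± 4.48 in control, 3.38 ± 1.62 in trametinib, 3.42 ± 2.70 in BGB-283 and 2.04 ± 2.44 in the combination. The 2 exceptions were 1 control and 1 combination library. The family ranked 6 of the 17 families with at least 100 clonotypes by mean TRAJ number, so that 5 families had higher means.

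The 2 names differed in their partners. Over the 22 libraries with both, the mean TRAJ number was 23.8 ± 7.24 under TRAV16 and 31.4 ± 2.33 under the joint name. It was lower under TRAV16 in 21 of 22. Some of these means rest on few TRAV16 clonotypes, with 1 in control D4 replicate 2. In the 13 libraries with at least 5 TRAV16 clonotypes the difference was -7.73 ± 5.17, and TRAV16 was lower in 13. Since the names define the members, this is a description with no test. The name of the copy nearest to the TRAJ array thus had partners farther along that array. The joint name, of the copies farther away, had partners nearer to the TRAV side. Both rest on the deposited names, as short reads may not separate the copies. This pairing runs opposite to that of repeated joining described above, and its cause was not tested. TRAJ39 and higher numbers made up 10% of TRAV16 clonotypes, 32.5% of joint-name clonotypes and 22.5% of other TRA clonotypes. TRAJ20 and lower numbers made up 43.5%, 18.4% and 25.3%. At the far end, TRAJ2 held 8% of TRAV16 clonotypes and 0.222% of joint-name clonotypes, although 11 of the 16 listed values of TRAJ2 under TRAV16 were near copies of a larger clonotype. TRAJ38 was an exception in number, with 9.50% of TRAV16 clonotypes, and 17 of its 21 listed values were near copies. With near copies merged the means were 23.9 and 31.7, lower under TRAV16 in 20 of 22 libraries. Of the 11 libraries that then had at least 5 TRAV16 clonotypes, 10 were lower under TRAV16.

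**Figure D3:**
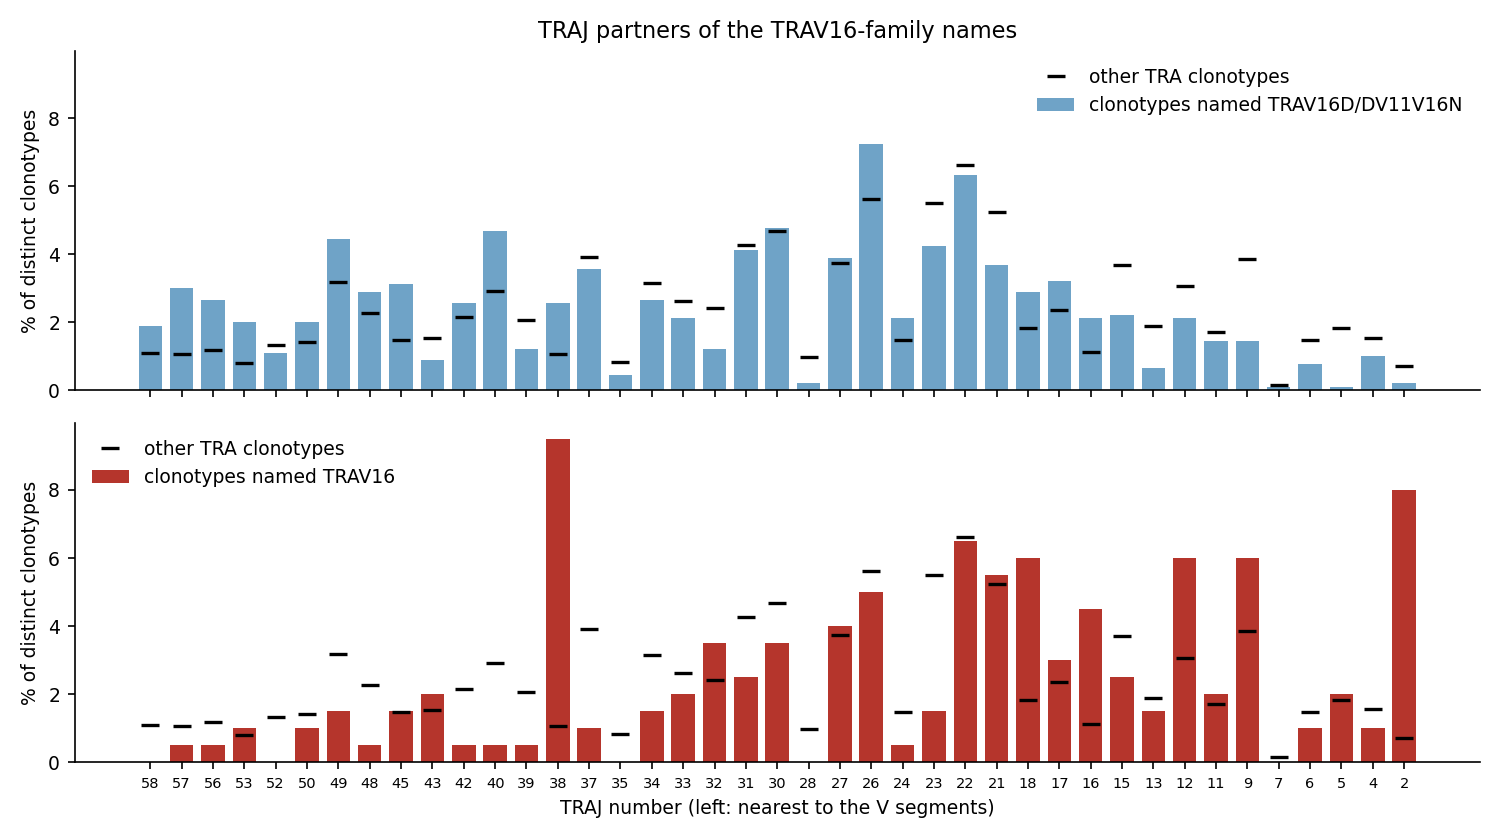
Percent of distinct clonotypes that use each of the 41 TRAJ, from the TRAV side of the locus (left) to the far side (right), for the joint name (upper panel) and the name TRAV16 (lower panel); black dashes are the other TRA clonotypes. The bars of the name TRAV16 are low on the left apart from TRAJ38 at 9.50%, while those of the joint name spread over the whole range.

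Near copies made up 15.5% of the family's listed values (22.9% under TRAV16 and 14.1% under the joint name) and 12.4% of those of other TRA clonotypes. They were most frequent in libraries with a large clone, with 36.8% in control D11 replicate 2 and 35.7% in trametinib D4 replicate 2. A near copy is counted only beside a clonotype with at least 20 times its counts, so this follows in part from the definition. Whether they are errors of reading or separate clones was not tested.

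Of single TRAJ, 5 of 41 had enough family clonotypes to be kept by the filter, and 0 of these passed in edgeR (0% called). At an unadjusted p under 0.05 there was 1, TRAJ23, with a log2 difference of -0.76 (edgeR adjusted p = 0.121). Without the filter, an alternative added after the data were seen, 10 of 41 (24.4%) were called. TRAJ38 was higher in the family by a log2 difference of 1.79 (SE 0.36, edgeR adjusted p = 8.57e-05), TRAJ57 by 1.19, TRAJ53 by 1.12, TRAJ16 by 0.99 and TRAJ45 by 0.93. Of the 53 listed values of TRAJ38 in the family, 31 were near copies of a larger clonotype. The fit with near copies merged did not keep TRAJ38, so its call was not tested without them. TRAJ28 was lower (-2.45), as were TRAJ5 (-2.02), TRAJ13 (-1.49), TRAJ31 (-0.95) and TRAJ9 (-0.89). By counts the leading partners were TRAJ38 with 11.9% of the family's counts, TRAJ26 with 11.5% and TRAJ31 with 10.5%. Each of these led in a different treatment through a large clone. TRAJ26 held 68.4% of the family's counts pooled over control, TRAJ31 32.9% in trametinib and TRAJ38 21.4% in the combination. Counted once, TRAJ26 led the family with 75 clonotypes (6.82%), followed by TRAJ22 with 70 (6.37%) and TRAJ30 with 50 (4.55%).

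The CDR3s of the family were longer than those of other TRA clonotypes in 23 of 23 libraries. The mean length was 14.9 ± 0.31 residues (SD, n = 23) against 13.5 ± 0.05, a difference of 1.32 ± 0.30 (two-sided permutation test, p = 1e-05, the smallest that 100000 resamples give, adjusted 3e-05). The difference was 1.24 in control, 1.21 in trametinib, 1.503 in BGB-283 and 1.32 in the combination. Lengths of 16 residues or more made up 31.5% of family clonotypes and 7.05% of the others, and lengths of at most 12 made up 4.28% and 20.8%. The mean length was 15.0 ± 0.68 under TRAV16 and 14.8 ± 0.32 under the joint name, lower under TRAV16 in 11 of 22 libraries and higher in 10. By mean length the family ranked 2 of the 17 families with at least 100 clonotypes, after TRAV15. As CDR3 length includes the last residues of the V segment, it is not fully separate from the V name.

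**Figure D4:**
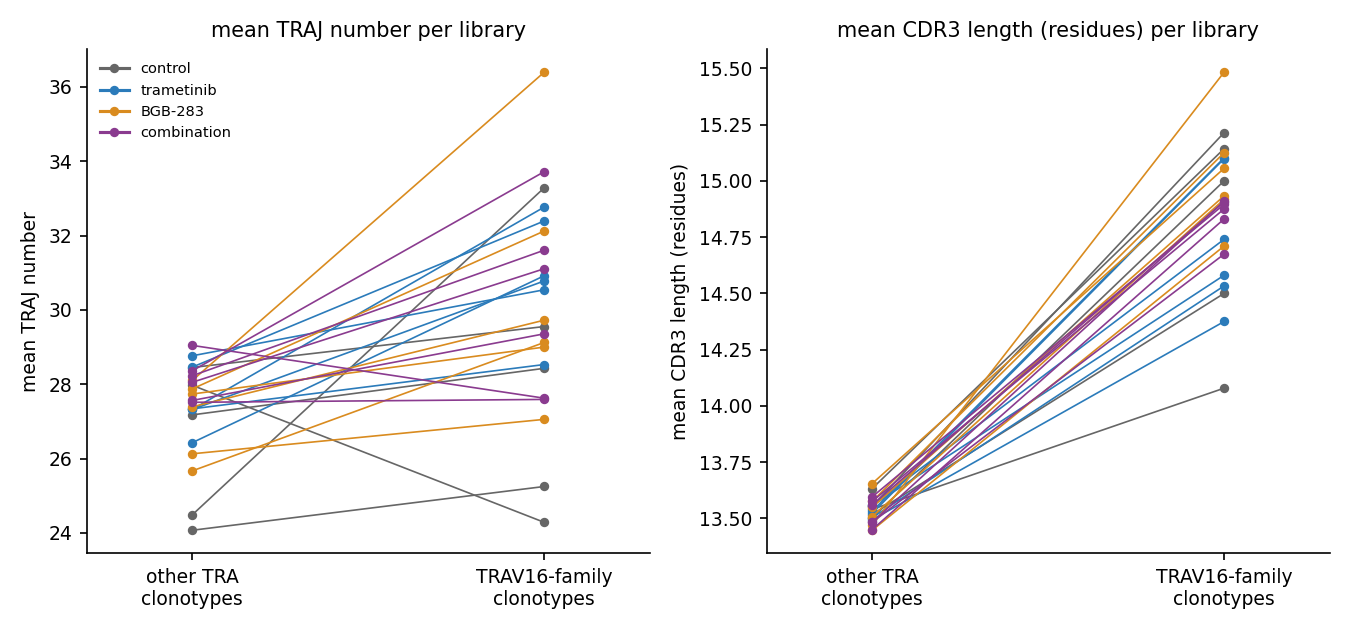
Mean TRAJ number (left) and mean CDR3 length in residues (right) of the other TRA clonotypes and of the TRAV16-family clonotypes of each of the 23 libraries, each library a line coloured by treatment. The lines rise in 21 of 23 libraries on the left and in 23 of 23 on the right; neither vertical axis starts at 0.

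The size of family clonotypes did not differ from that of the others past the threshold. The mean log2 count per clonotype was 5.10 ± 0.63 against 4.98 ± 0.46, a difference of 0.12 ± 0.39, higher in 15 of 23 libraries (permutation test, adjusted p = 0.156). With near copies merged it passed, at 0.18 (permutation test, adjusted p = 0.0133). Weighted by counts, so that large clones lead, the family lay lower, at -1.75 (permutation test, adjusted p = 0.00277). Such a weighted mean is set by the largest clones, of which a larger set can hold more. The family had on average 58.2 of a library's 1434.5 TRA clonotypes, so this value does not show that its clones were smaller.

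Of the 1099 family clonotypes, 135 (12.3%) were listed in 2 or more libraries, against 8.38% of the other TRA clonotypes. Those in 5 or more libraries numbered 11, all under the joint name, and each was listed in 2 to 4 treatments. The TRAJ33 clonotype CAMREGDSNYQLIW was listed in 7 libraries of all 4 treatments at 0.0165% to 0.151% of TRA counts. The TRAJ30 clonotype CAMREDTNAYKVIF was listed in 6 libraries of all 4 treatments at 0.00285% to 0.0880%. The TRAJ21 clonotype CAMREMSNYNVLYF reached 0.0322% and the TRAJ22 clonotype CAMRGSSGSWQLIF 0.980%. The large TRAJ26 clone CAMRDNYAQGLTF of control D11 replicate 2 was also listed in 4 combination libraries, under the joint name at 3 to 41 counts. Whether such low values are carry-over between libraries was not tested.

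The names were not fully separate. Of 1050 pairs of TRAJ and CDR3, 49 were listed under both names, and 14 of these under both in the same library. In 12 of the 15 library values concerned the joint name had more counts. In trametinib D4 replicate 2 the clone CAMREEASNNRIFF had 18233 counts under the joint name and 74 under TRAV16. In combination D4 replicate 1 the TRAJ38 clone had 13918 counts under TRAV16 and 4 under the joint name. The family sum does not depend on this split.

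The families whose share of TRA counts moved most like that of TRAV16 over the 23 libraries were TRAV17 (Spearman's rho 0.37), TRAV9 (0.37) and TRAV10 (0.28). These are weak, are given as a description, and rest on shares of the same library totals.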

How the data were processed

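Transcripts of TCR chains were sequenced from total RNA with a QIAGEN immune repertoire kit, per the labels' protocols. The authors deposited raw counts per chain, V name, J name and CDR3, with no scaling. The submitters' processing notes name the build GRCh38, a human assembly, for these mouse data, so no coordinates are printed. For the caller of clonotypes and its filters, no version or setting is stated in the labels.

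The members and lists were chosen with earlier results of these data known. Counts were summed per TRAV family (21, no filter) or name (118 of 143 kept by filterByExpr) and tested with edgeR 4.0.16 in R 4.3.3, with 8 groups, TRA totals as library sizes and no TMM. Benjamini-Hochberg adjustment covered all families, names or TRAJ tested, with a threshold of 0.05. Values per library were tested by exact permutation within days, adjusted over 6 contrasts. Paired measures used 100000 sign flips over libraries. Clones named held at least 1% of a library's TRA counts, up to 10 by share, and those just inside and outside that limit were added. TRAJ named passed their test or were among the 3 with most counts. The CDR3s printed, the other TRAJ and the clonotypes in 5 or more libraries were chosen after their values were seen. The replicate numbers entered no main test, since same-numbered libraries deviated together (all correlations over 0.1) in only 2 of the 28 pairs of groups, with a mean correlation of 0.0150. The edgeR fit of names was also run on simulated counts, for the combination against control only. These had large changes and less spread than the data, so they do not show how well the fits do here. Alternatives were TMM, DESeq2 1.42.0, filters, counts divided by 20 as estimated molecules, equal depth, a replicate block and libraries left out.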

Additional observations from a re-analysis of the deposited data

Results flagged for a closer look

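In control D11 replicate 2 the family held 16.3% and the joint name 16.1% of TRA counts, each far above the other 4 control libraries. The TRAJ26 clone held most of both. In combination D4 replicate 1 the largest clonotype held 59.8% of the family's counts, far above the other 5 combination libraries. These 3 values stood out among 24 sets of values examined, each 1 measure in 1 treatment with both days together. Chance flags about 1 in 20 of separate sets. These sets share libraries and clones and join the 2 days, so that rate need not hold for them.

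The change from control differed between D11 and D4 in edgeR for the family in the combination (log2 difference -4.44, adjusted p = 0.00752), trametinib (-4.88, adjusted p = 0.00208) and BGB-283 (-4.41, adjusted p = 0.00821). It also differed for the joint name in trametinib (-5.11, adjusted p = 0.0252). All 4 share the control libraries and none passed without control D11 replicate 2.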

How the results depend on the processing

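All values are log2 differences unless a unit is given. Counting each clonotype once gave 0.70 (edgeR adjusted p = 0.0383) for trametinib against control. BGB-283 against control turned to 0.27 with TMM, 0.36 with clonotypes counted once and 0.30 without the largest clonotype. For the difference between days in the change from control, TMM gave -3.68 in the combination. Clonotypes counted once gave -1.21, -1.47 and -1.15, and removal of the largest clonotype -3.09, -2.59 and -3.40, in the combination, trametinib and BGB-283. None of these 7 passed. Clonotypes counted once kept the D4 calls, at 1.44 in trametinib and 1.14 in the combination, and the rise in control, at 1.31. At D4 the combination did not pass with TMM (2.51), with the replicate block (2.68) or without the largest clonotype (2.48), nor trametinib without the largest (2.60). Without both shallow control libraries BGB-283 passed at D4 (2.53) and D11 (-3.09). Trametinib at D11 turned to 0.012 without the largest clonotype, and D11 against D4 turned to 0.35 in trametinib likewise and to 0.16 in BGB-283 and 0.10 in the combination with clonotypes counted once.

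For the name TRAV16, the combination against trametinib turned to -0.13 with clonotypes counted once and -1.10 without the largest. For the joint name, the combination against control turned to 0.16 with TMM, 0.12 with DESeq2, 0.0788 with the replicate block, 0.51 with clonotypes counted once and 0.90 without the largest. BGB-283 against control turned to 0.31, 0.28, 0.40 and 0.18 with the same settings less the block, and the combination against BGB-283 to -0.16 with TMM and with DESeq2.

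With near copies merged, added after the data were seen, the share of distinct clonotypes passed in the combination (1.24 points), trametinib (1.19) and D11 against D4 (0.687), and the combination against trametinib turned to 0.0524 points. The largest clone's share turned to 0.957 points in trametinib against control with the replicate block, and to 1.03 points for D11 against D4 without both shallow control libraries. The number of clonotypes without those libraries did not pass in the combination (2.33), trametinib (1.48) or the combination against BGB-283 (1.59). BGB-283 against control passed with near copies merged (1.32) and the replicate block (1.24). Mean log2 counts per clonotype passed with near copies merged (0.18). They turned to -1.75 when weighted by counts, a value that also depends on the number of clonotypes in each set. TRAJ called were 5 higher and 5 lower with no filter, 25 lower by counts and 2 lower without both shallow control libraries. Of the 40 TRAJ tested by counts, all but TRAJ38 (2.45) had a negative value, down to -10.4 for TRAJ5. Shares of 1 total cannot nearly all be lower, so these 25 are not a result on TRAJ usage. The causes were not tested, and a fit without libraries or with fewer TRAJ kept also has less to test.

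Leaving out 1 library at a time gave ranges. The difference between days ran from -5.18 to -2.85 in the combination, -5.62 to -3.29 in trametinib and -5.15 to -2.81 in BGB-283, and the rise in control from 2.36 to 4.69, each lost without control D11 replicate 2 alone. At D4 the combination ran from 2.47 to 3.21 and was lost without any of control D4 replicates 2 and 3, control D11 replicate 2, trametinib D4 replicate 2 and combination D4 replicates 1 and 2. BGB-283 at D4 ran from 1.77 to 2.53 and passed without control D4 replicate 1. Against control, BGB-283 ran from -0.52 to 0.65 and trametinib at D11 from -1.95 to 0.39. The joint name ran from -0.45 to 0.79 in the combination and from -0.63 to 0.60 in BGB-283 against control, and from -0.0423 to 0.36 in the combination against BGB-283. The name TRAV16 in the combination against trametinib ran from -0.00984 to 1.22. The joint name's difference between days in trametinib was lost in 7 of 23 such fits. The largest clone's share ran from -21.6 to 4.88, -14.5 to 12.04 and -20.04 to 6.48 points against control in the combination, in trametinib and in BGB-283 in that order, and from -7.49 to 2.49 in the combination against BGB-283. The number of clonotypes ran from 2.52 to 3.20, 1.67 to 2.35 and 0.93 to 1.62 against control, from 0.62 to 1.06 in the combination against trametinib, from 1.38 to 1.74 against BGB-283 and from -0.0377 to 0.31 for D11 against D4. Trametinib lost its call on number without control D11 replicate 1, any trametinib D4 library or trametinib D11 replicate 3, where fewer permutations also raise the smallest p. BGB-283 against control gained a call on number in 4 of these fits and the combination against trametinib in 2. TRAJ called lower were 0, or 1 without trametinib D4 replicate 1.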
